A study of Mus musculus with 12 samples.

Results

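Genomic imprinting leaves only the maternal or only the paternal copy of a gene active, and several imprinted genes set the growth of the embryo. This account covers 10 of them in mouse monocytes, chosen by gene symbol from the 55487 genes of the deposited table: H19, Igf2, Igf2r, Grb10, Plagl1, Cdkn1c, Mest, Dlk1, Meg3 and Peg3. Of the 10, 7 passed the filter on low counts and were tested, and Plagl1, Cdkn1c and Meg3 did not.

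Bulk RNA sequencing was performed on monocytes labelled Ly6C+, 50k cells a library, in 4 groups of 3 libraries. BM libraries came from bone marrow of WT genotype, with no age given. KO libraries came from fetal liver at E13.5 with genotype KO. Mixed libraries came from fetal liver at E15.5, and their genotype label is WT. WT libraries came from fetal liver of WT genotype, at E13.5 for WT 1 and E15.5 for WT 2 and WT 3 (E, embryonic day). The labels state no strain, no allele for KO and no meaning for Mixed. By its title the series is about cMaf and Zeb2. Its design text speaks of Z165KO mice and tissue-resident macrophages, not of the labelled cells. No label ties libraries to separate animals, so a p-value reflects the spread among 3 libraries a group, which could be technical only.

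As background, Igf2 encodes a growth factor that is expressed from the paternal chromosome. H19, a non-coding RNA from the maternal chromosome, lies beside it and shares its enhancers. Igf2r encodes a receptor, maternal in the mouse, that takes Igf2 into the cell for degradation and also carries enzymes tagged with mannose 6-phosphate to the lysosome. Grb10 encodes an adaptor that dampens insulin and IGF receptor signalling. Dlk1, a membrane protein of the Notch ligand family known as a marker of fetal hepatoblasts, and Meg3, a non-coding RNA, form a second pair with opposite parental expression. Cdkn1c encodes an inhibitor of cyclin-dependent kinases, and Plagl1 and Peg3 encode zinc-finger proteins. Mest encodes an enzyme-like protein of the alpha/beta hydrolase fold. Igf2, H19 and Dlk1 are abundant in fetal hepatocytes, so markers of those cells were measured alongside.

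The promoters of Igf2, Igf2r, Dlk1 and Peg3 are shown because these 4 members were higher in KO than in Mixed monocytes. They are from RefSeq (GRCm38.p6), each running from 250 bases before to 50 after an annotated start, written 5′ to 3′ on the gene's strand. Capitals mark CACCT or its reverse complement AGGTG, the pentamer that Zeb2 is known to bind, and 51.9% of the 32851 promoters of 300 bases in the table hold it on either strand.
Igf2, start 1, chr7:142666767-142667066, minus strand: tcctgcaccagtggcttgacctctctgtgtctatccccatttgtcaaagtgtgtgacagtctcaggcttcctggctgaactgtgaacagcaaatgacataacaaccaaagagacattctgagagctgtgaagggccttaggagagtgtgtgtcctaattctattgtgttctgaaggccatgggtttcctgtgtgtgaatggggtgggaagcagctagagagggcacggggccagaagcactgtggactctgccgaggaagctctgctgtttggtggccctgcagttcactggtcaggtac
Igf2, start 2, chr7:142661222-142661521, minus strand: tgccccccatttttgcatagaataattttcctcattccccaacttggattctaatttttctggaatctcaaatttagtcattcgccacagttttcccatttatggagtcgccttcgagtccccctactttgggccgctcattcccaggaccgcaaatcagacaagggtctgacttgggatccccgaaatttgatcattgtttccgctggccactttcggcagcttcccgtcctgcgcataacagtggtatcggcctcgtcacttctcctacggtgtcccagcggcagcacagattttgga
Igf2, start 3, chr7:142658755-142659054, minus strand: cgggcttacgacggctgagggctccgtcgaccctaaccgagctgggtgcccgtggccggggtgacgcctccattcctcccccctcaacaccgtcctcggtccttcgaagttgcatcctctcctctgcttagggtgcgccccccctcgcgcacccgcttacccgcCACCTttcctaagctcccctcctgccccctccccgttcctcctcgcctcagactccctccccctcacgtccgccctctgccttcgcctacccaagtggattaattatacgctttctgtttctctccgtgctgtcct
Igf2, start 4, chr7:142657447-142657746, minus strand: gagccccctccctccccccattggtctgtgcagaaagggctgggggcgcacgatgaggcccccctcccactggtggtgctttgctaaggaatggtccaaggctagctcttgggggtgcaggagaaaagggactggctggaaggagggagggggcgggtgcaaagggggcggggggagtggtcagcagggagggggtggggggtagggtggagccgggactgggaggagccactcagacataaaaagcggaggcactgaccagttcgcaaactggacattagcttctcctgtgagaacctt
Igf2r, chr17:12769657-12769956, minus strand: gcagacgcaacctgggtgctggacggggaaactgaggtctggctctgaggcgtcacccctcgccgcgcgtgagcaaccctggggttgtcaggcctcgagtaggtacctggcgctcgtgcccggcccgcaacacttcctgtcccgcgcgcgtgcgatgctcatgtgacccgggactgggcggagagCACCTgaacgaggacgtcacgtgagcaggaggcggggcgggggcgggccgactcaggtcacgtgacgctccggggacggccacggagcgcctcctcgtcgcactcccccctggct
Dlk1, chr12:109452573-109452872, plus strand: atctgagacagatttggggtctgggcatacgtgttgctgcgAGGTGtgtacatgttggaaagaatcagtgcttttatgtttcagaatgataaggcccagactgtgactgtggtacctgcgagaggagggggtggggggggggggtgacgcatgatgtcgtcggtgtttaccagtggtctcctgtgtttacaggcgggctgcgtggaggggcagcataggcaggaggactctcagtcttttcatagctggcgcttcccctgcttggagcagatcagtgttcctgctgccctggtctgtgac
Peg3, chr7:6730370-6730669, minus strand: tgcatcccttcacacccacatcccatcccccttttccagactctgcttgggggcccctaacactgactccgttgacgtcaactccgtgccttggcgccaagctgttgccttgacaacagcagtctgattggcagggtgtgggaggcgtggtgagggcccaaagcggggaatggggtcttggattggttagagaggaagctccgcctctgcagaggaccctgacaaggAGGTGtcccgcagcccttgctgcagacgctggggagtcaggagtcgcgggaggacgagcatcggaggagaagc
The pentamer was found in 4 of these 7 windows, once each at Igf2r, Dlk1, Peg3 and 1 of the 4 starts of Igf2. The window of Igf2r held 34 CG dinucleotides, those of Igf2 held 2, 14, 24 and 7, that of Dlk1 held 9 and that of Peg3 held 13, against a median of 7 over all promoters. The table matched 8 of the 10 members with 15 promoters, and not H19 or Cdkn1c, and 7 of the 15 held the pentamer, among them 1 of the 2 of Grb10. A match is a description of these letters only.

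The libraries held 17384911 to 24473471 counts. Levels are given in CPM, counts per 1e+06 counts on scaled library sizes, where 1 count is worth 0.0423 to 0.0558 CPM. Zeb2 had 23.8, 20.1 and 22.5 CPM in KO libraries, against 141, 143 and 165 CPM in WT libraries, and Maf had 12.7, 7.94 and 9.34 CPM in KO against 13.9, 12.1 and 14.9 CPM in WT. A list of 10 monocyte genes summed to 35600 to 36300 CPM in BM, 7740 to 8730 CPM in KO, 14500 CPM in Mixed and 10900 to 12400 CPM in WT. Of these genes, 9 were higher and 1 lower in BM than in KO. Between these groups 32% of all tested genes were called lower in BM, and 67.7% had no overlap. Lyz2 ran from 3950 CPM in KO 3 to 22100 CPM in BM 2. Cx3cr1 had 17.9 to 22.5 CPM in KO against 356 to 364 CPM in BM, and Fcgr1 157 to 189 CPM against 37.5 to 46 CPM. A list of 14 hepatocyte genes summed to 0.0992 to 0.879 CPM in BM, 20.7 to 104 CPM in KO, 6.59 to 9.33 CPM in Mixed and 9.78 to 81.4 CPM in WT. KO and Mixed did not overlap on this sum. A fit with it as a covariate therefore extrapolates between those 2 groups, and a call lost there does not show what part hepatocyte RNA has. Within their groups KO 3 and WT 3 stood apart on this sum, at 104 and 81.4 CPM, and values without them are given where leaving them out changed a call or a bound. Of this list, Apoc3 had no count in any library, Alb had none in BM, and Hnf4a reached 0.38 CPM.

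**Figure D1:**
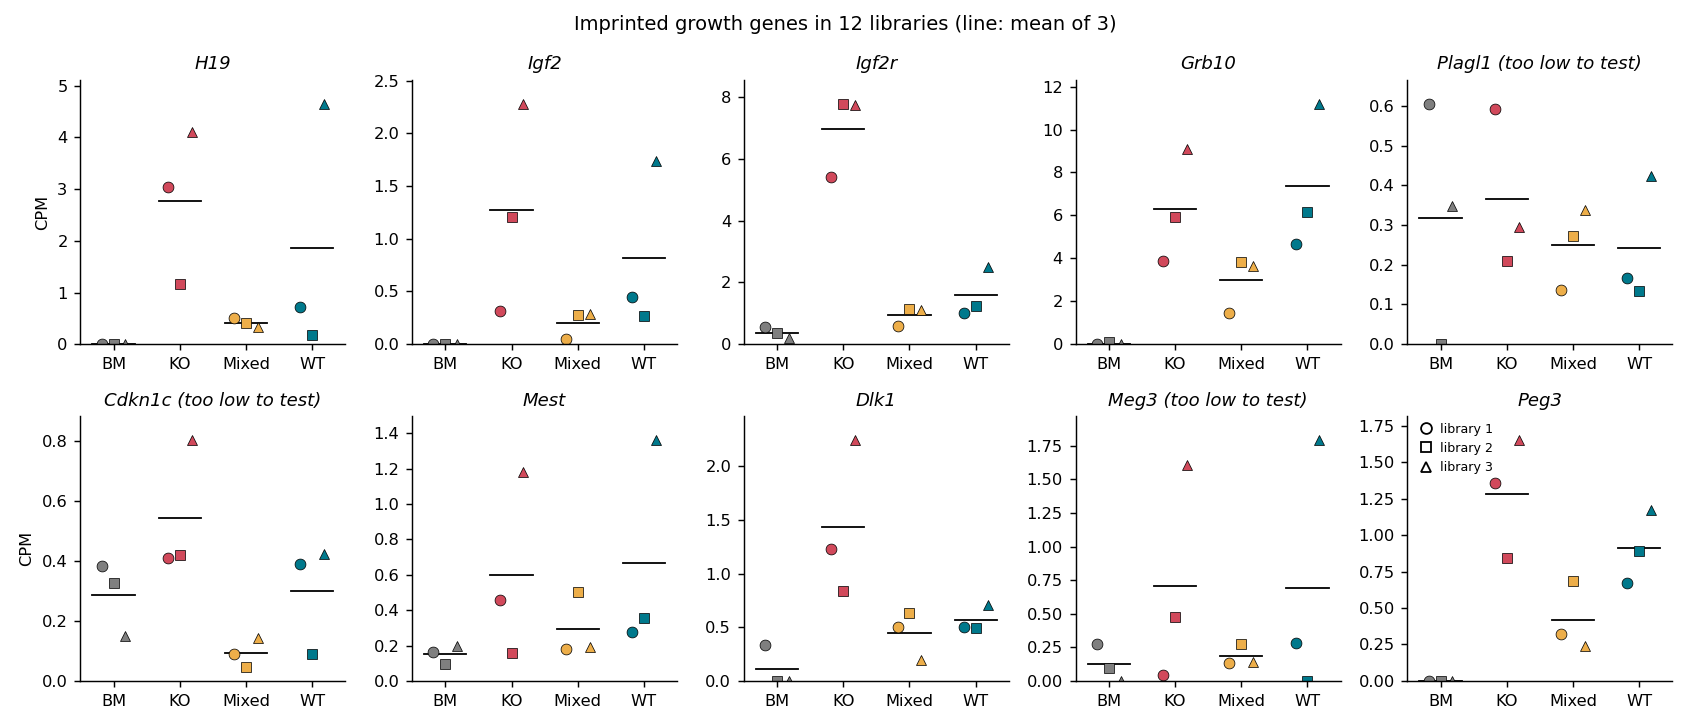
CPM of each of the 10 genes in the 12 libraries (circle, square and triangle for libraries 1, 2 and 3; black line, mean of 3), in BM, KO, Mixed and WT. Igf2r separates KO, at 5.41 to 7.78 CPM, from the other groups, and WT 3 is the highest WT library in all 10 panels.

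Igf2r was the only one of the 7 tested members that passed the test between KO and WT monocytes, and it was higher in KO. It had 5.41, 7.78 and 7.73 CPM in KO libraries, against 1.00, 1.25 and 2.49 CPM in WT libraries. The groups did not overlap, as for 47.4% of all tested genes between KO and WT. WT 1, of the same embryonic day as KO, was the lowest WT library, and WT 3 the one nearest to KO. The mean was 6.97 ± 1.35 CPM in KO and 1.58 ± 0.796 CPM in WT (SD, n = 3 each), a log2 fold change of 2.13 with a standard error of 0.322 (4.37-fold higher, adjusted p = 1.62e-05, edgeR's quasi-likelihood test). Of the 14618 genes tested, 38.1% were called in this comparison at an adjusted p under 0.05, so 1 of 7 members was below that share. In bulk libraries, more RNA per cell and more cells of a type that expresses the gene cannot be told apart. The call held without any single library (log2 fold change 1.89 to 2.61) and with KO 3 and WT 3 both left out (2.53, adjusted p = 2.15e-05). It also held with the hepatocyte sum as a covariate (1.99, adjusted p = 6.99e-06). With embryonic day, as labelled, as a covariate the log2 fold change was 2.81. That fit sets KO against WT 1 alone, the only WT library labelled E13.5. Igf2r is on the minus strand at chr17:12682406-12769664 (GRCm38), and Airn, the antisense RNA that crosses it without sharing an exon, had at most 7 counts in a library.

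Mixed libraries had 0.595, 1.14 and 1.11 CPM of Igf2r, an average of 0.946 ± 0.305 CPM, all below the KO values. KO was 7.34-fold higher than Mixed (log2 fold change 2.88, SE 0.340, adjusted p = 6.16e-07). BM libraries had 0.550, 0.373 and 0.198 CPM, below every fetal liver library. Groups without overlap were common, in 48.3% of all tested genes between KO and Mixed. For BM this share was 68.1% against WT, 67.7% against KO and 64.2% against Mixed. BM was 4.26-fold lower than WT (log2 fold change -2.09, SE 0.425, adjusted p = 1.96e-04) and 18.6-fold lower than KO (log2 fold change -4.22, adjusted p = 4.16e-09). Against Mixed, BM was 2.54-fold lower (adjusted p = 0.0141), and this call was lost without BM 3 (adjusted p = 0.0767) or without Mixed 2 (adjusted p = 0.0531). Mixed and WT overlapped in Igf2r and no difference passed the test (log2 fold change -0.75, adjusted p = 0.231).

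The ligand Igf2, on the minus strand at chr7:142650766-142666816, was low throughout. Gm49394 on the same strand and Igf2os on the other overlap its exons, and neither had a count in any library. How reads in shared exons were assigned was not tested. Counts and deposited TPM ordered libraries differently, with 1 count and 0.277 TPM in Mixed 1 but 6 counts and 0.105 TPM in Mixed 3. It had no count in BM, 0.318, 1.21 and 2.28 CPM in KO (7, 23 and 54 counts), 0.0457, 0.273 and 0.289 CPM in Mixed (1, 6 and 6 counts) and 0.446, 0.268 and 1.74 CPM in WT (8, 6 and 37 counts). KO 3 and WT 3 were the highest libraries, and KO and WT overlapped. KO averaged 1.27 ± 0.983 CPM and WT 0.818 ± 0.802 CPM (log2 fold change 0.63, SE 0.738, adjusted p = 0.555). This value was 1.84 without WT 3 (adjusted p = 0.0721) and -0.125 without KO 3 (adjusted p = 0.928). Against Mixed, KO was 6.18-fold higher (log2 fold change 2.63, SE 0.875, adjusted p = 0.031). This call ended when the hepatocyte sum, on which KO and Mixed do not overlap, was a covariate (log2 fold change 0.47, adjusted p = 0.698). It also ended without KO 2, KO 3, Mixed 1, Mixed 2 or Mixed 3 (adjusted p 0.0579 to 0.124). With no count in 3 BM libraries, a floor of 3 counts a library puts Igf2 at least 5.42-fold lower in BM than in WT and at least 8.41-fold lower than in KO. The first bound was 2.37-fold without WT 3 and the second 5.06-fold without KO 3.

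H19, at chr7:142575529-142578143 on the same strand, followed a like order of groups with a wider spread. It had no count in BM, 3.05, 1.16 and 4.10 CPM in KO, 0.503, 0.410 and 0.337 CPM in Mixed and 0.725, 0.179 and 4.65 CPM in WT. The WT mean of 1.85 ± 2.44 CPM rests on WT 3, whose 99 counts stand beside 13 in WT 1 and 4 in WT 2. With all libraries, KO and WT overlapped (log2 fold change 0.58, SE 0.960, adjusted p = 0.695). Without WT 3, KO was higher (log2 fold change 2.66, adjusted p = 0.00171), and also with KO 3 and WT 3 both left out (2.26, adjusted p = 0.0123). With the hepatocyte sum as a covariate the difference between KO and WT was not called (0.595, adjusted p = 0.43). WT 1, the WT library of the same embryonic day as KO, had 0.725 CPM of H19, below all 3 KO libraries. KO and Mixed did not overlap, as for 48.3% of all tested genes (log2 fold change 2.72, adjusted p = 0.105). Of 21 alternatives, 6 called this difference. Among them were those without WT 2 (adjusted p = 0.016) or WT 3 (2.82e-04) and that with only KO and Mixed fitted (1.62e-04). WT libraries are not part of this contrast and enter it mainly through the spread estimated over all groups, which was wide for H19 in WT. With the hepatocyte sum as a covariate, on which KO and Mixed do not overlap, the difference between them was not called (0.818, adjusted p = 0.492). BM was at least 12.2-fold lower than WT and at least 18.3-fold lower than KO by the floor of 3 counts a library. Without WT 3 the bound against WT was 2.99-fold, and without KO 3 that against KO was 13.9-fold. H19 and Igf2 did not keep 1 ratio between libraries: 67 and 7 counts in KO 1, 22 and 23 in KO 2, 97 and 54 in KO 3, and 99 and 37 in WT 3.

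Grb10, the adaptor (minus strand, chr11:11930508-12038683), was the member with the highest WT level by CPM and by deposited TPM. It had 2 counts in all of BM, 3.86, 5.94 and 9.09 CPM in KO, 1.46, 3.82 and 3.66 CPM in Mixed and 4.69, 6.17 and 11.2 CPM in WT. KO and WT overlapped closely, at 6.30 ± 2.63 and 7.34 ± 3.4 CPM (log2 fold change -0.22, SE 0.423, adjusted p = 0.730). Mixed, at 2.98 ± 1.32 CPM, lay below every WT library and did not pass the test (log2 fold change -1.31, SE 0.447, adjusted p = 0.109). Mixed and WT had no overlap in 27% of all tested genes. This comparison was called with no filter on low counts (adjusted p = 8.75e-04). KO lay above Mixed (log2 fold change 1.08, SE 0.449, adjusted p = 0.0847), a difference called without KO 1 (adjusted p = 0.0351) or WT 3 (adjusted p = 0.0322). By the ratio of counts, BM was 223-fold lower than WT (95% exact interval 61.5 to 1850, counting error only), 191-fold lower than KO (52.5 to 1582) and 88.9-fold lower than Mixed (24.3 to 739).

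Dlk1 (plus strand, chr12:109452823-109463336) had 0.330, 0 and 0 CPM in BM, 1.23, 0.841 and 2.24 CPM in KO, 0.503, 0.637 and 0.192 CPM in Mixed and 0.502, 0.491 and 0.705 CPM in WT. By CPM every KO library was above every WT and Mixed library. By deposited TPM this held against Mixed but not against WT, as WT 2 had 0.829 TPM and KO 2 had 0.764 TPM. KO was 3.21-fold higher than Mixed (log2 fold change 1.68, SE 0.603, adjusted p = 0.0333). Against WT the log2 fold change was 1.34 (SE 0.590) and the adjusted p 0.0803. Groups without overlap were found for 47.4% of all tested genes between KO and WT and for 48.3% between KO and Mixed. Between KO and Mixed the call was lost with the hepatocyte sum, on which they do not overlap, as a covariate (adjusted p = 0.315). It was also lost without KO 1, KO 3, Mixed 1 or Mixed 3 (adjusted p 0.0529 to 0.203). Between KO and WT a call appeared when only those 2 groups were fitted (adjusted p = 0.0178), with no filter (0.0365) and without BM 1 (0.0369).

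Peg3, the zinc-finger gene (minus strand, chr7:6703892-6730431), had no count in BM, 1.36, 0.841 and 1.65 CPM in KO, 0.320, 0.683 and 0.241 CPM in Mixed and 0.669, 0.894 and 1.17 CPM in WT. By CPM all KO libraries were above all Mixed libraries, where 48.3% of all tested genes had no overlap, and KO and WT overlapped. By deposited TPM, KO and Mixed overlapped. Mixed 2 had 0.375 TPM, above the KO libraries at 0.203, 0.126 and 0.226 TPM, so the difference depends on the measure. KO was 3.07-fold higher than Mixed (log2 fold change 1.62, SE 0.486, adjusted p = 0.0126). The call was lost with the hepatocyte sum, on which KO and Mixed do not overlap, as a covariate (log2 fold change 1.16, adjusted p = 0.155). It was also lost without KO 3 (1.40, adjusted p = 0.0679), without Mixed 1 (1.46, adjusted p = 0.0625) and without Mixed 3 (1.35, adjusted p = 0.0719). Between KO and WT the log2 fold change was 0.49 (SE 0.449, adjusted p = 0.429). BM was at least 6.04-fold lower than WT and at least 8.48-fold lower than KO by the floor of 3 counts a library.

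Mest (plus strand, chr6:30723547-30748465) had 0.165, 0.0932 and 0.198 CPM in BM, 0.455, 0.158 and 1.18 CPM in KO, 0.183, 0.501 and 0.192 CPM in Mixed and 0.279, 0.357 and 1.36 CPM in WT. KO 3 and WT 3 were again the highest, and no fetal liver comparison passed the test (adjusted p 0.275 to 0.900). Mest overlaps exons of Copg2 on the opposite strand, which had up to 2730 counts in a library, and the library kit does not mark strand, so the Mest values are uncertain.

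**Figure D2:**
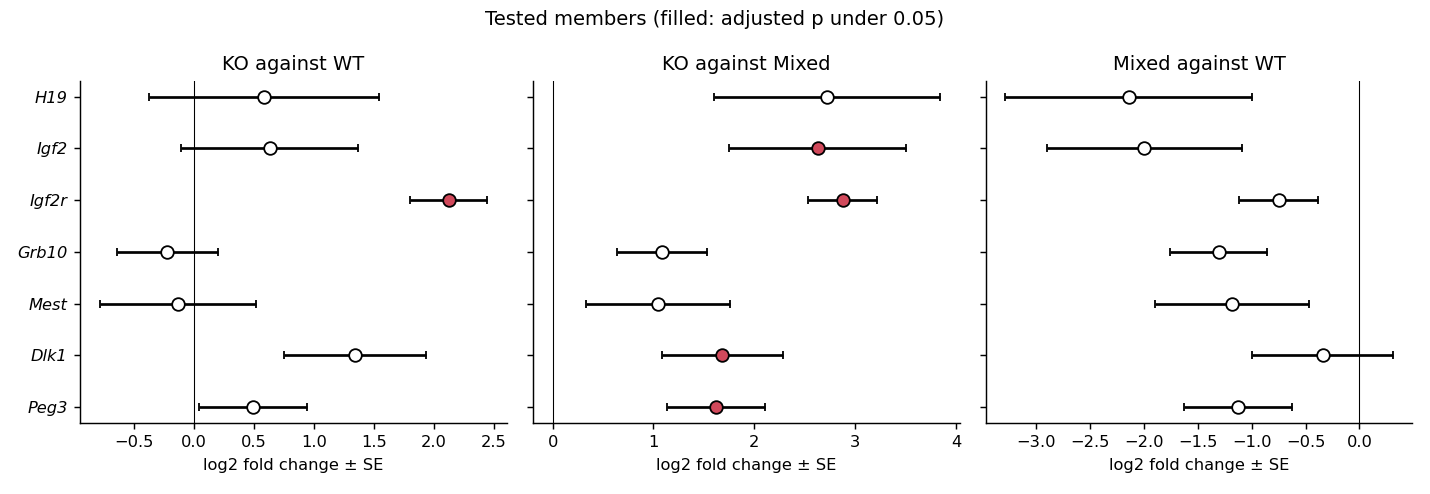
Log2 fold changes with standard errors of the 7 tested members for KO against WT, KO against Mixed and Mixed against WT, filled where the adjusted p was under 0.05. Igf2r is filled in the first panel, Igf2, Igf2r, Dlk1 and Peg3 in the second, and none in the third.

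Between KO and Mixed, 4 of the 7 tested members were higher in KO and none was lower, where 18.2% of all tested genes were called higher. The members' median log2 fold change was 1.68, against -0.0219 over all tested genes. Igf2 reached 10 counts only in KO 2, KO 3 and WT 3 (23, 54 and 37), with 1, 6 and 6 in Mixed. It thus passed the filter through libraries where it was high, and its call adds little to this count. This comparison sets E13.5 against E15.5, so genotype and age cannot be told apart in it, and KO had the higher hepatocyte sum in each library. KO and Mixed do not overlap on that sum, so a fit with it as a covariate extends a within-group slope, set largely by KO 3 and WT 3. Such a fit cannot separate the sum from the group. In it 1 member remained called, Igf2r (log2 fold change 2.28, adjusted p = 8.11e-05). With KO 3 and WT 3 both left out there were 2, Igf2r (2.79, adjusted p = 8.36e-07) and H19 (2.33, adjusted p = 0.00335). KO against WT and KO against Mixed share the KO libraries.

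Between Mixed and WT, 0 of 7 members were called by edgeR's test, 3 had an unadjusted p under 0.05 (Igf2, Grb10 and Peg3), and DESeq2 called 0, with no adjusted p for 4 of them, where 8.07% of all tested genes were called. The medians were -1.18 over the members and -0.00641 over all tested genes. Without WT 3 the H19 log2 fold change moved to -0.0593, against -2.14 with it. That of Igf2 moved to -0.788.

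In BM, all 7 tested members were lower than in WT and in KO, where 31.9% and 32% of all tested genes were called lower. These 7 passed the filter through the fetal liver libraries, so their count says little beyond the levels: the 10 genes summed to 0.893 to 2.31 CPM in BM, 16.7 to 31.0 CPM in KO, 3.98 to 8.06 CPM in Mixed and 9.15 to 25.9 CPM in WT. H19, Igf2 and Peg3 had no count in any BM library, and Grb10 had 2. Against Mixed, 8 of the 10 genes were too low to judge, and of the rest Igf2r and Grb10 were both lower in BM. Dlk1 and Peg3 also passed the test there (adjusted p = 0.0438 and 1.65e-04, 28.9% of all genes called lower), with both group means under 0.5 CPM, and the Dlk1 call was lost in 8 of 18 alternatives. Against WT, the Dlk1 call in BM (adjusted p = 0.0161) was lost without BM 2 or BM 3. Mest in BM was lower than in WT (adjusted p = 0.0255) and KO (adjusted p = 0.0360), and this call was lost without BM 1 or BM 2 and without WT 3 (against WT) or BM 3 or KO 3 (against KO).

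A member was taken as too low to judge in a comparison where the filter removed it or both group means were under 0.5 CPM. By this rule Plagl1, Cdkn1c and Meg3 were too low in all 6 comparisons. Plagl1 (chr10:13060504-13131694) had 11, 0 and 7 counts in BM, 13, 4 and 7 in KO, 3, 6 and 7 in Mixed and 3, 3 and 9 in WT, with groups that overlapped. Cdkn1c (chr7:143458339-143461050) had 7, 7 and 3 counts in BM, 9, 8 and 19 in KO, 2, 1 and 3 in Mixed and 7, 2 and 9 in WT. KO was above Mixed in every library of Cdkn1c, and with no filter that difference was called (log2 fold change 2.49, adjusted p = 0.0163). Meg3 (chr12:109541001-109571726) had 38 counts in KO 3 and 38 in WT 3, against at most 9 in each of the other 10 libraries. It was called lower in BM than in WT and in KO with no filter (log2 fold change -2.51 and -2.59, adjusted p = 0.0432 and 0.0338), and than in WT without WT 2 (-3.09, adjusted p = 0.0343). In the other fits that left out 1 library and kept Meg3 it was not called in these comparisons. Such counts do not show that a gene is silent: a total of 18 counts for Plagl1 in BM still bounds its level there at 0.178 to 0.476 CPM (95% exact interval, counting error only).

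On the length-scaled TPM deposited by the authors, which allows levels of different genes to be ranked, no member exceeded an average of 0.412 TPM in BM, that of Cdkn1c. The order in KO was H19 (1.81 ± 0.952 TPM), Igf2 (1.43 ± 1.01 TPM), Grb10 (1.43 ± 0.616 TPM), Dlk1 (1.15 ± 0.511 TPM) and Igf2r (0.871 ± 0.162 TPM). Neighbours in this order did not differ beyond their spread. In Mixed it opened with Grb10 (0.770 ± 0.324 TPM) and Dlk1 (0.524 ± 0.117 TPM), and Igf2r had 0.134 ± 0.0422 TPM. In WT it opened with Grb10 (1.93 ± 0.724 TPM), H19 (1.56 ± 1.79 TPM) and Igf2 (1.24 ± 1.20 TPM), also within their spread, and Igf2r had 0.219 ± 0.106 TPM.

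**Figure D3:**
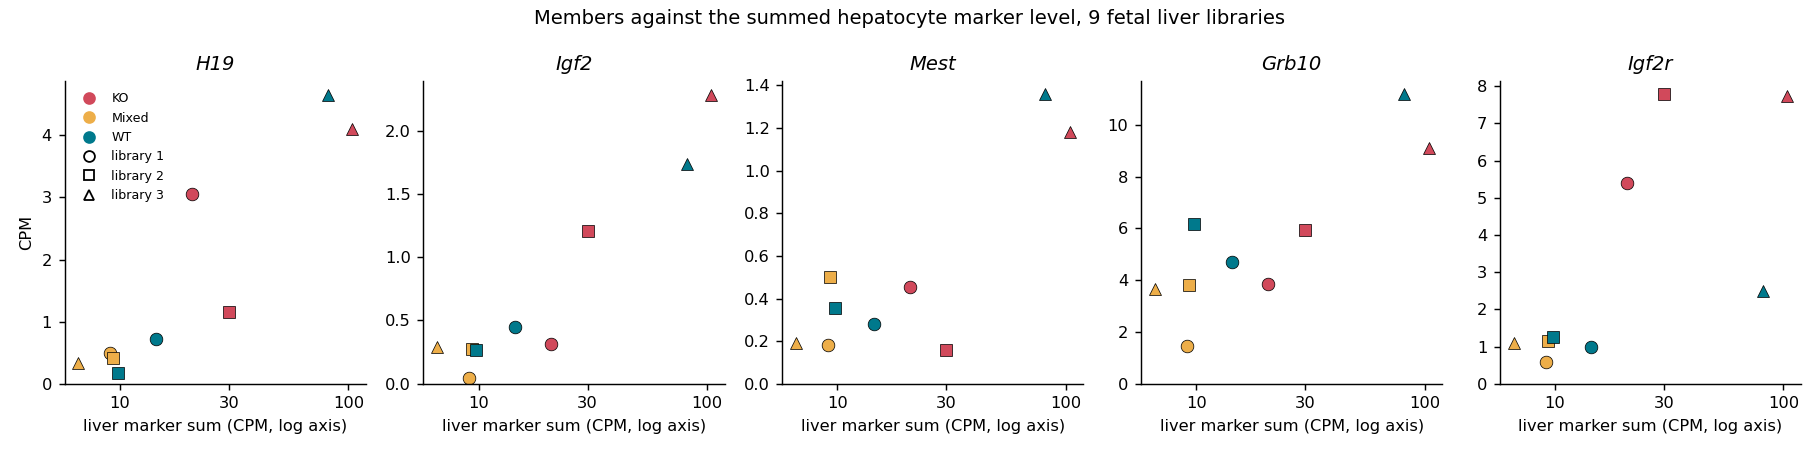
CPM of H19, Igf2, Mest, Grb10 and Igf2r against the summed CPM of 14 hepatocyte genes (log axis) in the 9 fetal liver libraries, coloured by group. KO 3 and WT 3, at 104 and 81.4 CPM on the x axis, hold the 2 highest values of H19, Igf2, Mest and Grb10, while Igf2r stays at 5.41 CPM or more in KO at every hepatocyte level.

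The members' levels were set against the hepatocyte sum within groups. All 10 members were highest in WT 3 among WT libraries, and 8 of 10 were highest in KO 3 among KO libraries, the others being Plagl1 in KO 1 and Igf2r in KO 2. In Mixed, whose sum varied from 6.59 to 9.33 CPM, the highest library was Mixed 1 for 1 member, Mixed 2 for 6 and Mixed 3 for 3. WT 3 exceeded the mean of WT 1 and WT 2 by 6.73-fold in the hepatocyte sum, 12.9-fold in Meg3, 10.3-fold in H19, 4.87-fold in Igf2, 4.28-fold in Mest, 2.20-fold in Igf2r, 2.06-fold in Grb10, 1.5-fold in Peg3 and 1.42-fold in Dlk1. KO 3 exceeded the mean of KO 1 and KO 2 by 4.09-fold in the sum, 6.22-fold in Meg3, 3.86-fold in Mest, 2.98-fold in Igf2, 2.17-fold in Dlk1, 1.95-fold in H19, 1.86-fold in Grb10 and 1.17-fold in Igf2r. Afp, the main fetal hepatocyte protein gene of the list, had 51.1 CPM in KO 3 against 9.69 and 15.1 CPM in the other KO libraries, and 39.7 CPM in WT 3 against 7.81 and 5.45 CPM in the other WT libraries.

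The relation was tested in edgeR with the log2 sum as a term beside the group means over the 9 fetal liver libraries, so that its slope is a change within groups. The log2 change per doubling of the sum was 0.86 for H19 (SE 0.220, unadjusted p = 0.00262, adjusted p = 0.169), 0.85 for Igf2 (SE 0.199, unadjusted p = 4.08e-04, adjusted p = 0.064) and 0.76 for Mest (SE 0.210, unadjusted p = 0.00181, adjusted p = 0.143). It was 0.37 for Grb10, 0.34 for Dlk1, 0.27 for Igf2r and 0.21 for Peg3 (adjusted p 0.314 to 0.739). By this test 0 of 7 members passed the adjustment over 14112 genes, of which 0.51% were called, 5 of 7 had an unadjusted p under 0.05, and all 7 slopes were positive. Igf2 and Mest passed the filter largely through KO 3 and WT 3 (54 and 37 counts of Igf2, 28.12 and 29.23 of Mest). Those libraries hold the highest hepatocyte sums, so positive slopes of Igf2 and Mest were favoured in advance and add little to these counts. A call appeared for H19 without KO 1 (adjusted p = 5.47e-04) and for Igf2 and Grb10 without Mixed 1 (adjusted p = 0.0452 and 0.0293). Of the hepatocyte genes themselves, 8 of the 10 tested were called higher. The sum is made of these genes, so their positive slopes were favoured in advance and are no check of the test. With KO 3 and WT 3 left out the slopes of H19, Grb10 and Peg3 were -0.0859, -0.141 and -0.24, so their positive slopes rest on those 2 libraries. The slopes of Dlk1 and Igf2r were then 0.399 and 0.139, with no call for any of the 5 (adjusted p = 0.998 for each), and Igf2 and Mest were too low to test. The filter removed Meg3 from the 9-library fit. It passed the filter in 7 of the fits that left out 1 library and was called in 6 of them. The slopes over those 7 were 1.27 to 1.71 (adjusted p 0.00793 to 0.0627). All 7 kept KO 3 and WT 3, with 38 counts of Meg3 each, through which it passed the filter. Those libraries also hold the highest hepatocyte sums, so a positive slope was favoured in advance and these calls say little.

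**Figure D4:**
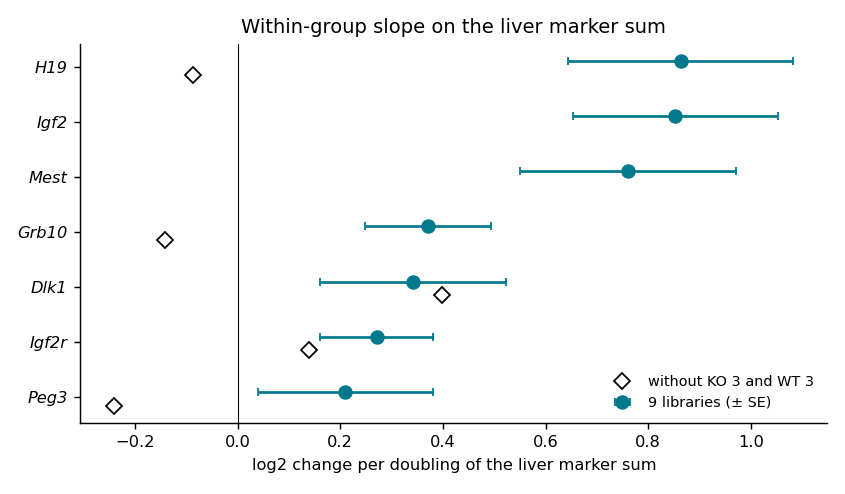
Within-group slope of each tested member on the log2 hepatocyte sum (log2 change per doubling; filled points with SE, 9 fetal liver libraries; open diamonds, KO 3 and WT 3 left out, with no diamond where a gene was then too low to test). All 7 filled points are above 0, the diamonds of H19, Grb10 and Peg3 are below it and those of Dlk1 and Igf2r above it.

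Markers of other cell types were also higher in WT 3, though single genes made up most of several sums. In WT libraries, Egfl7 of the endothelial list had 14.8 to 16.6 CPM. Cd34 of the stem and progenitor list had 520 to 560 CPM there, and Adgre1 of the macrophage list 167 to 204 CPM. In WT 3, against WT 1 and WT 2, the endothelial list summed to 24.4 CPM against 18.2 and 18.4, the erythroid list to 1980 against 1010 and 1110, the megakaryocyte list to 15.2 against 6.64 and 5.45, the stem and progenitor list to 630 against 583 and 587, and the macrophage and Kupffer list to 384 against 282 and 298. In KO 3 these sums lay within the range of the other KO libraries for endothelial, erythroid, megakaryocyte and macrophage genes (12.9, 1060, 5.75 and 317 CPM), and the stem and progenitor sum was 315 against 304 and 274. Mesenchymal and stellate markers summed to 9.37 to 10.4 CPM in BM, of which Acta2 alone had 7.64 to 7.88 CPM, and to 2.69 to 4.67 CPM in Mixed. The mesenchymal sum was highest in KO 3 among KO libraries, at 2.96 CPM against 1.55 and 0.946 CPM, and in WT 3 among WT libraries, at 4.51 CPM against 3.74 and 2.19 CPM. The embryonic globin Hbb-y had 27.4 CPM in KO 3 and 38.1 CPM in WT 3, the highest of their groups, and 0.268 CPM in WT 2, the other WT library with a label of E15.5. With the erythroid sum in place of the hepatocyte sum no member was called for its slope (adjusted p = 0.996 for each). With the sum of mesenchymal and endothelial markers all 7 slopes were positive. H19 was called (7.47 per doubling, adjusted p = 0.00435) and the others were not (adjusted p 0.364 to 0.823). The endothelial part of that sum ran only from 18.2 to 24.4 CPM in WT, 12.2 to 14.4 CPM in KO and 12.6 to 13.1 CPM in Mixed. A doubling lies beyond these ranges, so 7.47 is an extrapolation. The erythroid, endothelial and mesenchymal sums were all highest in WT 3 among WT libraries, as the hepatocyte sum was, so their parts in the members' levels cannot be told apart here. Embryonic day as a term over the 9 fetal liver libraries called 0 of 7 members (0.00709% of 14112 genes called, none of the members at an unadjusted p under 0.05), a comparison that rests on WT 1 against WT 2 and WT 3. It takes the label of WT 3 as given, whose Hbb-y level is above that of every E13.5 library and of the other E15.5 libraries, at 0.268 to 2.93 CPM. Without WT 3 the H19 age term was -1.99, against 1.70 with it, on the log2 scale.

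Genes of the pathways around the members were read from lists taken from textbook knowledge. Of 23 tested IGF and insulin signalling genes, 5 were higher and 5 lower in KO than in WT, where 38.1% of all tested genes were called in either direction. Igfbp4, which binds IGFs, averaged 6.37 CPM in KO and 28.5 CPM in WT (log2 fold change -2.16, SE 0.133, adjusted p = 2.01e-11), while the kinase Akt2 averaged 70.0 CPM in KO and 36.6 CPM in WT. Igf1r, the receptor that signals for Igf2, averaged 21.7 CPM in KO and 18.7 CPM in WT without passing the test (adjusted p = 0.111). In BM, 10 of these genes were higher and 8 lower than in WT (64% of all tested genes were called), with Igf1r at 10.3 CPM against 18.7 CPM. Between Mixed and WT none was called.

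Igf2r shares its sorting role with M6pr, the other mannose 6-phosphate receptor, which averaged 328 CPM in KO and 339 CPM in WT (adjusted p = 0.815). Of 13 genes of this sorting route, 2 were higher and 7 lower in KO than in WT, against 38.1% of all tested genes called. Nagpa, which uncovers the mannose 6-phosphate tag, averaged 34.7 CPM in KO and 54.2 CPM in WT, and Gnptab, which adds the tag's precursor, 22.1 and 15.9 CPM. In BM, M6pr averaged 558 CPM against 339 CPM in WT (adjusted p = 6.52e-04), a difference opposite to that of Igf2r. There 6 of 13 genes were higher and 6 lower than in WT, where 64% of all tested genes were called. Between Mixed and WT only Gga3 was called (1.20-fold higher, adjusted p = 0.0395).

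Of 22 other imprinted genes tested, 4 were higher and 6 lower in KO than in WT, and 10 higher and 9 lower in BM than in WT. None was called between Mixed and WT. Of all tested genes, 38.1% were called in KO against WT, 64% in BM against WT and 8.07% in Mixed against WT. These shares also apply to the counts of paralogs and of imprint maintenance genes that follow. The non-coding RNA Peg13 averaged 1.97 CPM in KO and 5.90 CPM in WT (log2 fold change -1.58, adjusted p = 2.81e-06), and Slc22a18, a transporter gene near Cdkn1c, 4.84 and 2.33 CPM. Snrpn, a splicing protein gene, had no count in BM against 3.97 CPM in WT, while KO had 2.05 CPM (lower than WT, adjusted p = 0.00925). Ppp1r9a and Sfmbt2 were lower in BM, at 0.597 and 1.04 CPM, against 6.15 and 7.09 CPM in WT. Among 5 tested paralogs of the members, Grb14, the relative of Grb10, averaged 4.63 CPM in BM, 2.83 CPM in KO and 1.01 CPM in WT (adjusted p = 5.55e-07 for BM and 2.50e-04 for KO), and 4 of the 5 were not called between KO and WT. In BM, 3 paralogs were higher and 2 lower than in WT, with Plag1 lower at 1.12 CPM against 6.51 CPM. Of 7 tested genes that maintain imprints, 3 were lower in KO than in WT, all by less than 1.3-fold, and 1 was higher and 4 lower in BM, with Uhrf1, which brings Dnmt1 to replicating DNA, at 209 CPM against 372 CPM.

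By Pearson correlation of log2 CPM over the 12 libraries, which share their 4 groups, the genes most like Igf2r were Pomp (r = 0.978), Ppdpf (0.969) and Cadm1 (0.965). Among those most like Grb10 were Cox19 (0.986) and Pole3 (0.982), and Peg3 was most like Igf1r (0.981). These values mostly restate the difference between groups.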

How the data were processed

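Per the labels' protocols, monocyte RNA went through a SMARTer Ultra Low kit; that chemistry gives unstranded libraries. Estimated counts per gene and TPM, a value scaled for transcript length and library size, were deposited by the authors in tables of the whole series. Per the submitters' processing notes, the tools were DRAGEN, STAR, Subread, featureCounts and Salmon and the build was mm10. Of the nonzero counts 28.5% were not whole (tolerance 1e-06), and all were rounded for testing. Of 55774 entries 287 repeated a gene and were removed. filterByExpr (minimum count 10, minimum total 15) left 14618 genes, TMM set the scaling, and 1 quasi-likelihood fit in edgeR 4.0.16 (R 4.3.3, limma 3.58.1) over the 12 libraries gave each group a mean. P-values were two-sided, adjusted by the Benjamini-Hochberg method over all tested genes, and called under 0.05. SE is the log2 fold change over the square root of its F. Liver sums entered as log2(CPM + 0.5). Log2 CPM for correlations used a prior count of 2. The TPM had no test. DESeq2 1.42.0 was an alternative. Genes were named by rule: all 10 members, of each other list the called genes with the 3 largest changes and a mean of at least 1 log2 CPM, and the 3 genes most like a tested member; Igf1r and M6pr were added after their values were seen, and a few genes chosen by this rule are not reported here. The fit was checked on simulated data. Members and lists were chosen with earlier results of these data known. Gene positions are 1-based, from GENCODE on GRCm38 (mm10).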

Additional observations from a re-analysis of the deposited data

How the results depend on the processing

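Igf2r kept its direction and its side of the threshold under every alternative run for KO against WT (22) and KO against Mixed (21). Leaving out 1 library, its adjusted p for KO against WT was 1.96e-06 to 2.55e-04. Of the 22, the fit with embryonic day as a covariate rests on WT 1 alone for WT. The number of members called between KO and WT was 1, and 2 with no filter, with only the 2 groups fitted or with KO 3 and WT 3 left out (leaving out 1 library, 1 to 2). Between Mixed and WT it was 0, and 2 with no filter (leaving out 1 library, 0 in each fit). Between BM and WT it was 7, and 4 with only the 2 groups fitted, where 4 were tested (leaving out 1 library, 5 to 8). Between KO and Mixed it was 4, and 1 with the hepatocyte sum as a covariate or 2 with KO 3 and WT 3 left out (leaving out 1 library, 1 to 6). Between BM and Mixed it was 4, and 2 with only the 2 groups fitted, where 2 were tested (leaving out 1 library, 2 to 6). Between BM and KO it was 7 (leaving out 1 library, 6 to 7). For the hepatocyte slope it was 0, and 1 (H19, 7.47 per doubling, adjusted p = 0.00435) with mesenchymal and endothelial markers in place of hepatocyte ones (leaving out 1 library, 0 to 3).

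Directions turned as follows; the cause was not tested. With embryonic day as a covariate, KO against WT gave 0.447 for Grb10 and 1.14 for Mest, with WT 1 alone standing for WT. With the hepatocyte sum as a covariate, Mixed against WT gave 0.173 for Dlk1 and 0.235 for Mest, and KO against Mixed gave -0.85 for Mest. Slopes without KO 3 and WT 3 were -0.0859 for H19, -0.24 for Peg3 and -0.141 for Grb10. Leaving out 1 library at a time, KO against WT ran from -0.593 to 0.209 for Grb10, -0.125 to 1.84 for Igf2 and -1.09 to 0.915 for Mest, Mixed against WT from -0.689 to 0.00597 for Dlk1, and the age term from -1.99 to 2.65 for H19, -0.0348 to 0.466 for Dlk1 and -0.727 to 1.93 for Igf2. The alternatives with the hepatocyte sum as a covariate and with KO 3 and WT 3 both left out were chosen after seeing the data.

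Replicate numbers did not pair the samples: deviations of same-numbered libraries correlated at -0.0353 to 0.0693. With the replicate number as a block, 1 member was called between Mixed and WT (Grb10, adjusted p = 0.00287), and Dlk1 was not called between KO and Mixed (adjusted p = 0.0592). The block also called H19 and Grb10 between KO and Mixed and H19 and Igf2 between BM and Mixed, and lost Dlk1 there (adjusted p = 0.0521). In each comparison at most 4 of the 6 libraries correlated best with the library of their own number in the other group. With 3 libraries a group and few counts for most members, small differences were not detectable at this depth.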
